A study of Mus musculus with 10 samples.

Results

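Transcripts of 30 complement genes were followed in mouse liver: the recognition molecules and proteases that start the cascade, its central components, the proteins of the terminal pore, the regulators that hold it back and the receptors for its fragments. The genes were taken from a list by name, not by their values, and they were represented by 45 probes, of which 42 passed the detection filter. 29 of the 30 genes could be tested, among 15089 genes tested in all. The gene that could not was Cd46, a membrane cofactor for the cleavage of C3b and C4b, whose 2 probes were well above background on at most 1 ethanol array and on 0 control arrays.

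The tested mice were male C57BL/6J animals, bought at 7 weeks of age, that ate a 60% high-fat diet of 5.5 kcal/g for 4 months and had ethanol in their water for the last 3 of those months. Their daily intake was 5 g/kg at the start, for a week, and then 10 g/kg. Control mice were males of the same strain and age that ate the same diet for the same 4 months without ethanol, so every animal was on the high-fat diet and no mouse on standard diet was analysed here. Of 20 mice, 10 per group, 5 per group were picked at random, and each array held the liver RNA of 1 mouse (150 ng of starting RNA). The question was what chronic ethanol adds to liver gene expression in mice on a high-fat diet.

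Complement is a set of plasma proteins, most of them made by hepatocytes, that marks microbes and damaged cells. The classical and lectin pathways begin with recognition molecules bound to proteases, the alternative pathway amplifies C3 cleavage through factor B and factor D, and all routes converge on C3, then on C5 and the pore built from C6, C7, C8 and C9. Soluble and membrane-bound regulators limit the cascade on host cells, and the fragments C3a and C5a act on receptors of myeloid cells.

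Levels are log2 processed intensities relative to each array's 75th percentile, so that a level of 0 equals that percentile. Levels of different probes do not compare amounts of transcript between genes, and signal only served to choose which markers are named. On the 10 arrays 55.5% to 59.1% of spots were well above background, and 0 spots were saturated. The number of arrays, 5 per group, limits the precision of every value. The arrays lay on 3 slides. Slide 1 held ethanol mouse 4 and control mice 4 and 5. Slide 3 held ethanol mice 1, 2, 3 and 5 and control mouse 2, and slide 2 held control mice 1 and 3 only. Slide column 1 held ethanol mice 2 and 3 only, and column 4 held control mice 1, 4 and 5 only. Column and treatment can therefore not be fully told apart. Hepatocyte markers were present throughout (15 of 15 tested), with a summed signal of 6230 to 6872 times the 75th percentile in ethanol mice and 5815 to 7614 times in control mice. The markers whose probes had the highest mean signal, Serpina1a and Alb (albumin), had log2 fold changes of 0.085 ± 0.11 and 0.062 ± 0.097 (SE from limma, n = 5 each).

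No complement gene passed the threshold. With limma and Benjamini-Hochberg adjustment over all genes, 0 of 29 had an adjusted p under 0.05, against a background of 0.0199% (3 of 15089 genes). By direction, 0 complement genes were called higher, against a background of 0.0133%, and 0 lower, against 0.00663%. An unadjusted p under 0.05 was seen for 2 genes, against a background of 13.3%: 1 higher in ethanol mice (Fcna), where 8.12% of all genes were, and 1 lower (Mbl2), against 5.22%. In 0 of 29 genes were the 5 ethanol mice and the 5 control mice fully apart, where 3.05% of all genes were. That was 0 genes with all ethanol mice higher (background 1.97%) and 0 with all lower (background 1.07%). The log2 fold change of ethanol over control was above 0 in 14 complement genes and below 0 in 15, with a median of -0.0091, against 0.029 over all genes tested. The share below 0 was 51.7% in complement genes and 43.2% in all genes. With quantile normalization 21 of 29 were below 0, and the median was -0.081 for complement genes and -0.015 for all genes. The 95% confidence interval of the log2 fold change lay within 0.5 of 0 for 16 genes and within 1 of 0 for 24, so differences beyond those sizes lie outside the intervals of these genes.

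**Figure D1:**
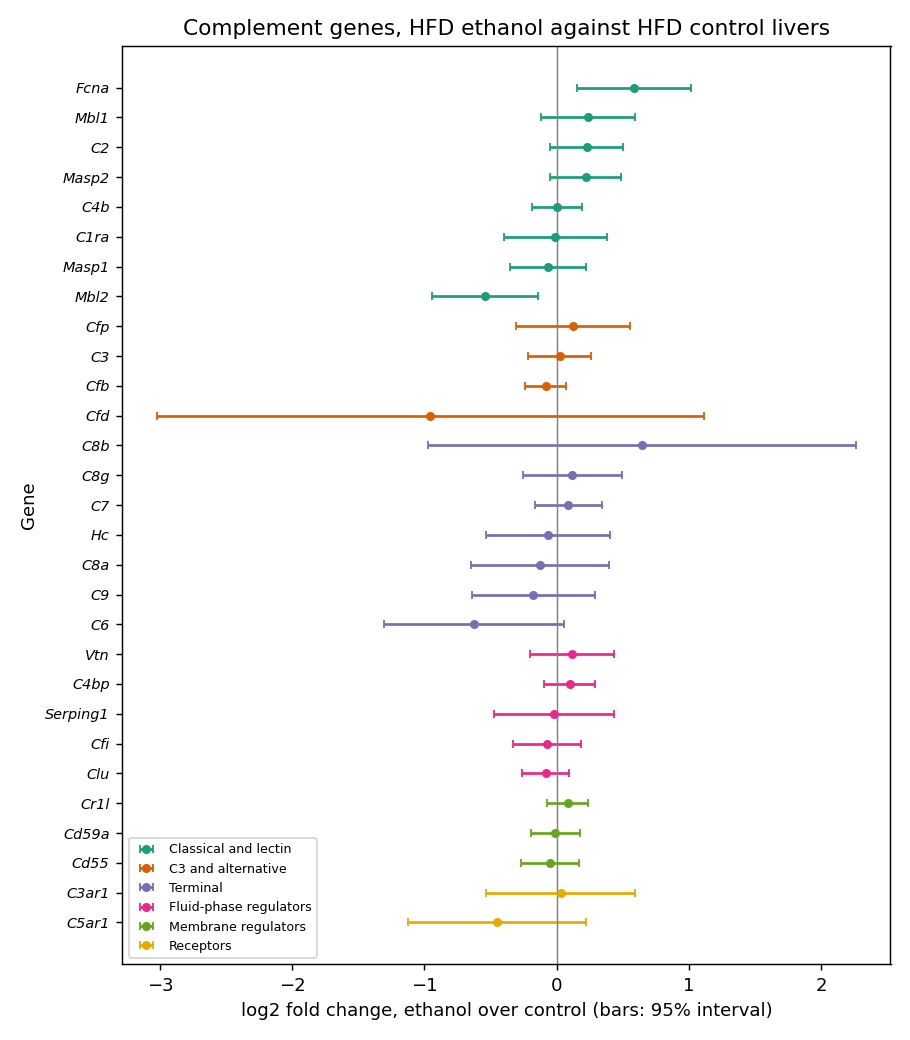
Log2 fold change of ethanol over control for the 29 tested complement genes, grouped by role, with the 95% confidence interval of the limma fit (5 mice per group). Intervals of all but Mbl2 and Fcna cross 0, and those of Cfd and C8b are the widest of the 29.

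Among the recognition molecules of the lectin pathway the values went in different directions. Mbl2, a mannose-binding lectin (MBL-C) that binds sugars on microbial surfaces, had levels of 7.01, 6.84, 6.43, 7.45 and 6.85 in ethanol mice 1 to 5, against 7.19, 7.71, 7.72, 7.40 and 7.28 in control mice 1 to 5. Ethanol mouse 4 lay within the control range and the other 4 ethanol mice below every control mouse. The log2 fold change was -0.54 ± 0.18 (SE, n = 5 each), a signal 1.46-fold higher in control mice, with a limma p of 0.0125 before and 0.292 after adjustment. An exact permutation test of the group means (two-sided) gave p = 0.0317. Within slide 3, where control mouse 2 was the only control, the difference was -0.92. Within slide 1 it was 0.10, on 1 ethanol and 2 control arrays.

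Mbl1, the other mannose-binding lectin (MBL-A), had levels of 3.56, 3.98, 4.28, 3.86 and 3.38 in ethanol mice and of 3.42, 3.48, 3.80, 3.65 and 3.52 in control mice. Ethanol mice 2, 3 and 4 lay above all control mice and ethanol mouse 5 below them. The log2 fold change was 0.24 ± 0.16 (adjusted p = 0.509, limma). Because Mbl1 and Mbl2 are paralogs that a hepatocyte makes together, their log2 ratio was compared within each mouse, with only differences between mice read from it. Mbl2 minus Mbl1 was 3.45, 2.86, 2.15, 3.59 and 3.47 in ethanol mice and 3.77, 4.22, 3.92, 3.76 and 3.77 in control mice. The groups did not overlap, with every ethanol mouse below every control mouse. The mean was 3.104 ± 0.60 in ethanol mice and 3.89 ± 0.20 in control mice (SD, n = 5 each), a difference of -0.78. The exact permutation p was 0.00794, the smallest that 5 against 5 mice allow, and 0.0476 after Benjamini-Hochberg adjustment over 6 such pairs. All 6 pairs were chosen after the values of their genes were seen. Neither p accounts for that choice, so they describe the separation and do not test it. The difference was -0.17 within slide 1 (ethanol mouse 4 the only ethanol mouse) and -1.24 within slide 3 (control mouse 2 the only control). It ranged from -0.90 to -0.55 when each mouse was left out in turn. It was -0.38 without the arrays in slide column 1, which held ethanol mice 2 and 3.

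The promoters of these 2 genes are shown because the genes are paralogs that share a stretch of sequence. A relation between that sequence and the levels was not tested. Each line gives 250 bases upstream of the transcription start, on the gene's strand, from RefSeq (GRCm38.p6). Mbl2 lies on the forward strand at chr19:30232678-30232927 and Mbl1 on the forward strand at chr14:41151206-41151455. Capitals mark the most alike ungapped window of 35 bases, of which 31 are identical. It ends 45 bases before the start of Mbl2 and 11 bases before the start of Mbl1.
Mbl2: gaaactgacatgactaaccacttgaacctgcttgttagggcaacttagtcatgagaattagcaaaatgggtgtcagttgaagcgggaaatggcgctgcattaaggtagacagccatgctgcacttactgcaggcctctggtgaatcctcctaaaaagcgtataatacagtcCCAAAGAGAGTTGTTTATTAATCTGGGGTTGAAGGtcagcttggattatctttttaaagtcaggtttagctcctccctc
Mbl1: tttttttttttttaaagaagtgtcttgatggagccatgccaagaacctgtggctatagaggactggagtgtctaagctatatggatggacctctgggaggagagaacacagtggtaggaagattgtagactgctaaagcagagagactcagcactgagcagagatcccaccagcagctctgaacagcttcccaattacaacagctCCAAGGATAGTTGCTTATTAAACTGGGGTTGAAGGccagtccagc

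Fcna, ficolin A, a recognition molecule of the lectin pathway that liver macrophages make in mice, had levels of 1.13, 1.43, 1.28, 1.15 and 0.69 in ethanol mice, against 0.071, 0.21, 0.81, 0.72 and 0.96 in control mice. Ethanol mice 1 to 4 lay above all control mice and ethanol mouse 5 within their range. The log2 fold change was 0.58 ± 0.20 (SE, n = 5 each), with the signal 49.97% higher in ethanol mice, with a limma p of 0.0132 before and 0.295 after adjustment and an exact permutation p of 0.0317. The difference was 0.32 within slide 1 (ethanol mouse 4 the only ethanol mouse) and 0.93 within slide 3 (control mouse 2 the only control). In bulk liver RNA, more RNA per cell and more cells of a type cannot be told apart. The 10 tested Kupffer cell markers split evenly, 5 above and 5 below 0, and their summed signal was 59.3 to 115 in ethanol mice and 63.0 to 106.9 in control mice. Cd163, a scavenger receptor, and Clec4f, a Kupffer cell lectin, were named after their values were seen: their log2 fold changes were 0.90 ± 0.18 (adjusted p = 0.162, limma, groups fully apart) and 0.42 ± 0.16 (adjusted p = 0.319). Cd5l and Csf1r, chosen by the mean signal of their probes, had values of -0.0023 and -0.026. The part of these markers in the Fcna value was not tested.

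**Figure D2:**
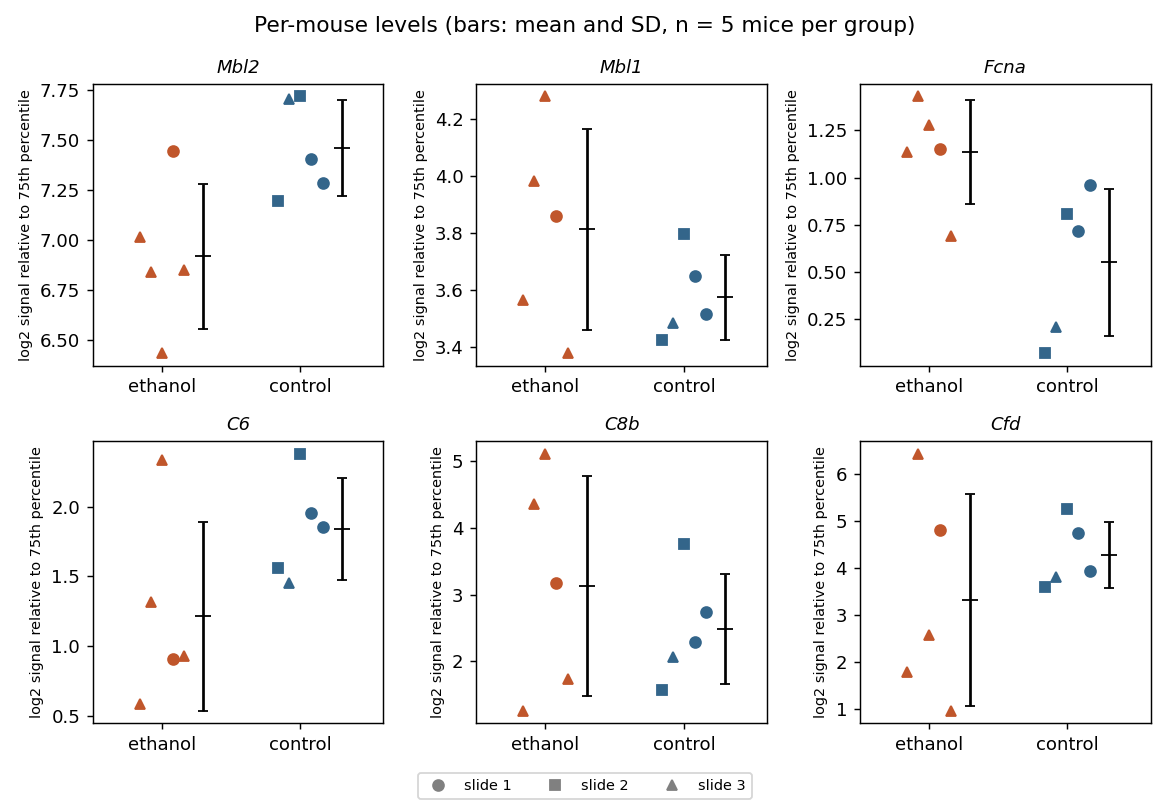
Level of each mouse (points) for 6 complement genes, on a log2 scale where 0 is the 75th percentile of the array, with ethanol mice left and control mice right. Bars give mean and SD and symbols the slide, and 4 of 5 ethanol mice lie below the control range for Mbl2 and C6 and above it for Fcna.

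The proteases of the classical and lectin pathways overlapped between the groups. Masp2, which cleaves C4 and C2, had a log2 fold change of 0.22 ± 0.12 (adjusted p = 0.437, limma), and Masp1, which activates Masp2, one of -0.067 ± 0.13. Of the 3 kept Masp2 probes, the 2 assigned to the same transcript each gave 0.22. The third, assigned to a different Masp2 transcript, gave -0.037. C2, the protease subunit of the C3 convertase, had levels of 4.85, 5.19, 5.24, 4.84 and 4.79 in ethanol mice and 4.67, 4.63, 5.03, 4.58 and 4.87 in control mice, a fold change of 0.23 ± 0.12 (adjusted p = 0.436) with overlapping groups. C1ra, a protease of the C1 complex, and C4b, the component that C1s cleaves, were at -0.0091 ± 0.18 and 0.0046 ± 0.086. C4b levels stayed between 7.95 and 8.20 in ethanol mice and between 7.95 and 8.22 in control mice, and a second C4b probe gave a difference of 0.054. Close copies of these genes exist, and the probes' cross-hybridisation was not tested: C4a had 0.094 and C1rb -0.014.

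C3, the protein on which all pathways converge, had levels of 9.50, 9.79, 9.77, 9.53 and 9.28 in ethanol mice, against 9.48, 9.63, 9.65, 9.40 and 9.59 in control mice. The control mice lay inside the ethanol range, and the fold change was 0.023 ± 0.11 (adjusted p = 0.941, limma), with a second probe at 0.043. Cfb, the protease that C3b binds in the alternative pathway, stayed within 6.79 to 7.04 in ethanol mice and 6.93 to 7.02 in control mice, with a difference of -0.084 ± 0.068 (adjusted p = 0.589) and a second probe at -0.044. Cfp, properdin, a stabiliser of the alternative convertase made largely by leukocytes, had 0.12 ± 0.19, and its second probe -0.022.

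Cfd, factor D or adipsin, a protease best known as an adipocyte product, had the largest within-group spread of the 29 genes. Its levels were 1.79, 6.42, 2.57, 4.82 and 0.97 in ethanol mice and 3.59, 3.80, 5.25, 4.75 and 3.94 in control mice. Ethanol mouse 2 was the highest and ethanol mouse 5 the lowest of the 10, 43.9-fold apart. The ethanol mice spanned 5.46 log2 units and the control mice 1.66. The fold change was -0.95 ± 0.93, with a 95% interval of -3.02 to 1.11 (adjusted p = 0.660, limma), and a second probe gave -0.94. The pooled within-group SD of Cfd, 1.67, lay at the 99.9th percentile of all genes tested. Without ethanol mouse 2 the log2 fold change was -1.73, and without ethanol mouse 5 it was -0.37. Of 10 adipocyte markers, Adipoq, Plin1, Slc36a2 and Ucp1 were well above background on 0 arrays. Retn was so on at most 3 ethanol arrays and 1 control array. The remaining 5 markers were tested, and 3 of those were above 0. The summed signal of the 5 was 345 to 593 in ethanol mice and 289 to 446 in control mice. It was mostly Car3 (mean level 8.33) and Cidea (6.18), against 2.25 for Fabp4, 0.28 for Lep and -0.85 for Adrb3. The sum was therefore not read as an amount of adipocytes. Cidea, a lipid droplet gene, had 1.24 ± 0.24 (adjusted p = 0.156, limma, groups apart) and Adrb3, a beta-adrenergic receptor, -0.64 ± 0.20 (adjusted p = 0.262), each with an unadjusted p under 0.05. The other tested markers were Fabp4 at -0.60, Car3 at 0.24 and Lep at 0.13. Their part in the Cfd values was not tested.

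In the terminal pathway, whose proteins build the membrane pore, 3 genes were above 0 and 4 below. C8b, the beta chain of C8, had levels of 1.26, 4.36, 5.11, 3.18 and 1.73 in ethanol mice, against 1.57, 2.06, 3.76, 2.30 and 2.75 in control mice. Ethanol mice 2 and 3 were above every control mouse and ethanol mouse 1 below every one, a 14.4-fold span over the 10 mice. The fold change was 0.64 ± 0.73 (adjusted p = 0.7096, limma), with a second probe at 0.58, and the pooled SD of 1.31 lay at the 99.7th percentile. It turned to -0.42 with the slide column of the array as a covariate, and it was 0.15 without ethanol mouse 3. C8a, the alpha chain and the neighbouring gene on chromosome 4, had -0.13 ± 0.23 and ranged from 4.14 to 5.34 in ethanol mice and from 4.57 to 5.13 in control mice. Its second probe gave -0.27. C8g, the gamma chain, had 0.12 ± 0.17.

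C6, which joins C5b to begin the pore, had levels of 0.59, 1.32, 2.33, 0.91 and 0.93 in ethanol mice and 1.56, 1.45, 2.38, 1.95 and 1.85 in control mice. 4 of 5 ethanol mice lay below every control mouse, and ethanol mouse 3 was above all but control mouse 3. The difference was -0.63 ± 0.31 (limma p = 0.0677, adjusted p = 0.396, exact permutation p = 0.0952), and it was -0.90 without ethanol mouse 3. It was -0.996 within slide 1 (ethanol mouse 4 the only ethanol mouse) and -0.16 within slide 3 (control mouse 2 the only control). C7, which C6 recruits next, had 0.087 ± 0.11, C9, which polymerises into the pore wall, -0.18 ± 0.21, and Hc, which encodes C5, -0.066 ± 0.21. For C9 and Hc, ethanol mice 2 and 3 were the highest of the 10 and ethanol mice 1 and 5 the lowest, and C8a had the same lowest mice. The within-mouse ratio of C6 to C7 differed by -0.71 between groups (exact permutation p = 0.0397, 0.0571 after adjustment over the 6 pairs). This pair too was chosen after its values were seen, which neither p accounts for.

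Among 250-base promoters searched on both strands, the STAT motif TTCNNNGAA occurred in 7.0% of 32851 promoters and in 3 of the 23 complement genes with a RefSeq promoter (C7, C8a and Masp2), and the C/EBP motif TTGCNNAA in 9.6% of all and in 2 of the 23 (C3 and C9). The 23 were counted as genes, with a match in any promoter of the gene, and the 32851 as promoters, so the shares differ in unit. The TATA box letters TATAAA occurred in 12.4% of all and in 4 of the 23 (C3ar1, C7, Hc and Vtn), and CAAAGTCCA, an HNF4 motif, in 0.4% of all and in 0 of the 23. A match is only a description of the letters.

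The 5 fluid-phase regulators all had 95% intervals within 0.5 log2 units of 0. Clu (clusterin) and Vtn (vitronectin), which keep the pore out of membranes, had -0.081 ± 0.080 and 0.12 ± 0.14. Cfi, the protease that inactivates C3b and C4b, had -0.071 ± 0.12, and its cofactor C4bp 0.098 ± 0.087, turning to -0.035 with quantile normalization. Serping1, the C1 inhibitor, had -0.021 ± 0.21, with levels of 5.83, 6.79, 6.68, 6.53 and 5.78 in ethanol mice and 6.12, 6.28, 6.49, 6.45 and 6.38 in control mice, so ethanol mice 1 and 5 were below and 2, 3 and 4 above all controls. Adjusted limma p-values of these 5 genes ran from 0.622 (C4bp) to 0.972 (Serping1).

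The 3 tested membrane regulators also had intervals within 0.5 log2 units of 0. Cr1l (Crry), a rodent cofactor and decay accelerator, had 0.083 ± 0.069 (second probe 0.071), Cd59a, which blocks C9 assembly, -0.0093 ± 0.084 (second probe 0.16), and Cd55, decay-accelerating factor, -0.049 ± 0.099, with other probes at -0.19 and -0.013. Their close copies Cd59b and Cd55b had 0.12 and -0.15, and cross-hybridisation was not tested. Among the receptors, C3ar1, the C3a receptor, had levels of -3.06, -3.46, -3.00, -3.91 and -3.06 in ethanol mice and -2.87, -3.79, -3.87, -3.31 and -2.81 in control mice. C5ar1, the C5a receptor, was well above background on 4 ethanol and 5 control arrays, with levels of -3.28, -4.98, -3.55, -4.41 and -3.59 in ethanol mice against -3.29, -3.84, -3.76, -3.44 and -3.22 in control mice. Its log2 fold change was -0.45 ± 0.30 (adjusted p = 0.508, limma), or -0.20 without ethanol mouse 2, and the groups overlapped. C3ar1 had 0.032 ± 0.25.

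**Figure D3:**
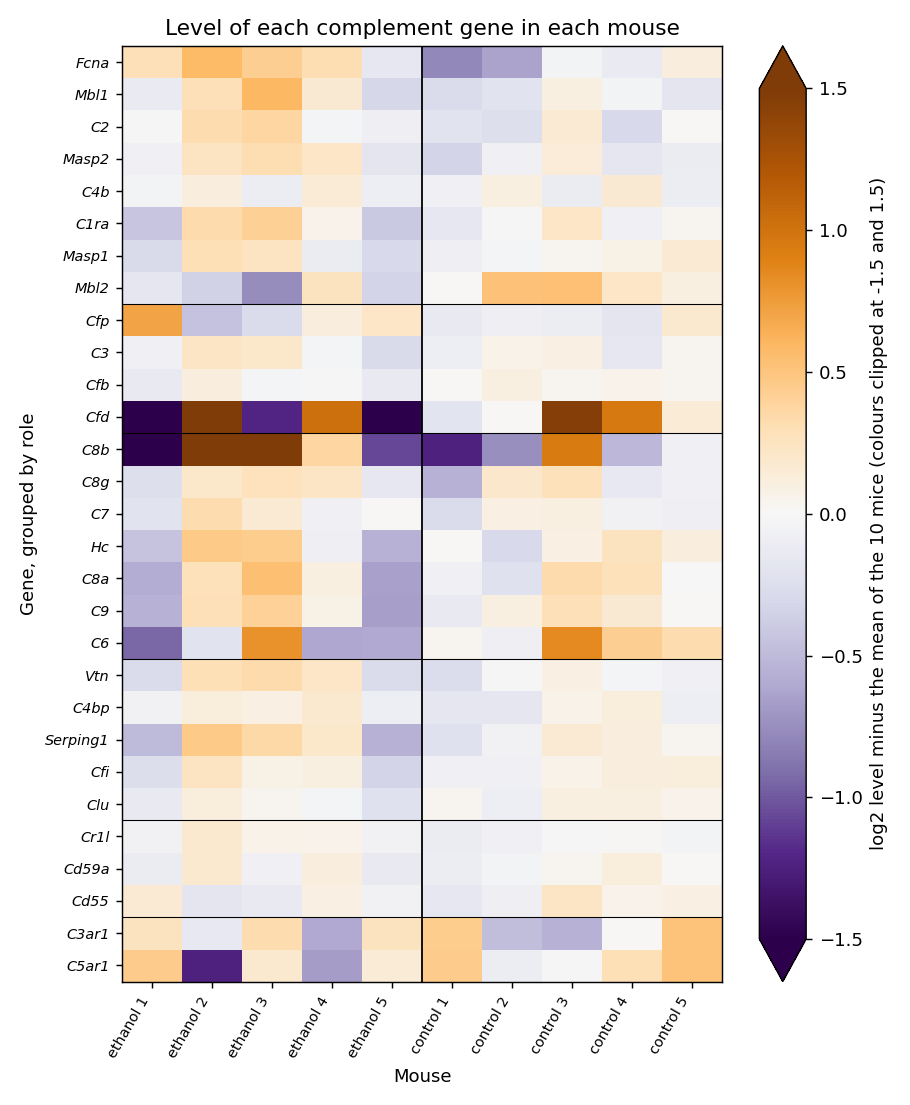
Deviation of each complement gene in each mouse from its mean over the 10 mice, in log2 units, with colours clipped at 1.5 and the ethanol mice left of the control mice. Ethanol mouse 2 or 3 holds the highest value in 20 of 29 genes and ethanol mouse 1 or 5 the lowest in 16 of 29. The same counts were not made over all genes tested.

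The same few mice were the extremes for many of the genes. Ethanol mouse 2 held the highest value for 12 complement genes and ethanol mouse 3 for 8, whereas ethanol mouse 5 held the lowest for 12, control mouse 1 for 6 and ethanol mouse 1 for 4. The same counts were not made over all genes tested, so they cannot be called particular to complement genes. Median deviations over the 29 genes were -0.14, 0.24, 0.24, 0.097 and -0.21 in ethanol mice 1 to 5 and -0.13, -0.063, 0.096, 0.048 and 0.032 in control mice 1 to 5. Over all genes tested they were 0.024, 0.043, -0.0039, 0.028 and 0.018 in ethanol mice and -0.053, 0.018, -0.020, 0.0095 and -0.019 in control mice. Ethanol mice 2 and 3 were the only arrays in slide column 1, and control mice 1, 4 and 5 the only ones in column 4. Beside these, the median deviation of 23 acute phase genes was -0.34, 0.30, 0.11, -0.01 and -0.45 in ethanol mice and 0.01, -0.01, -0.03, 0.23 and 0.12 in control mice. For 15 hepatocyte markers it was -0.09, 0.13, -0.02, 0.11 and -0.04 in ethanol mice and -0.17, 0.22, 0.11, -0.04 and -0.05 in control mice. Their part was not tested. The ethanol range exceeded the control range in 22 of 29 complement genes (75.9%), against 59.0% of all genes.

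**Figure D4:**
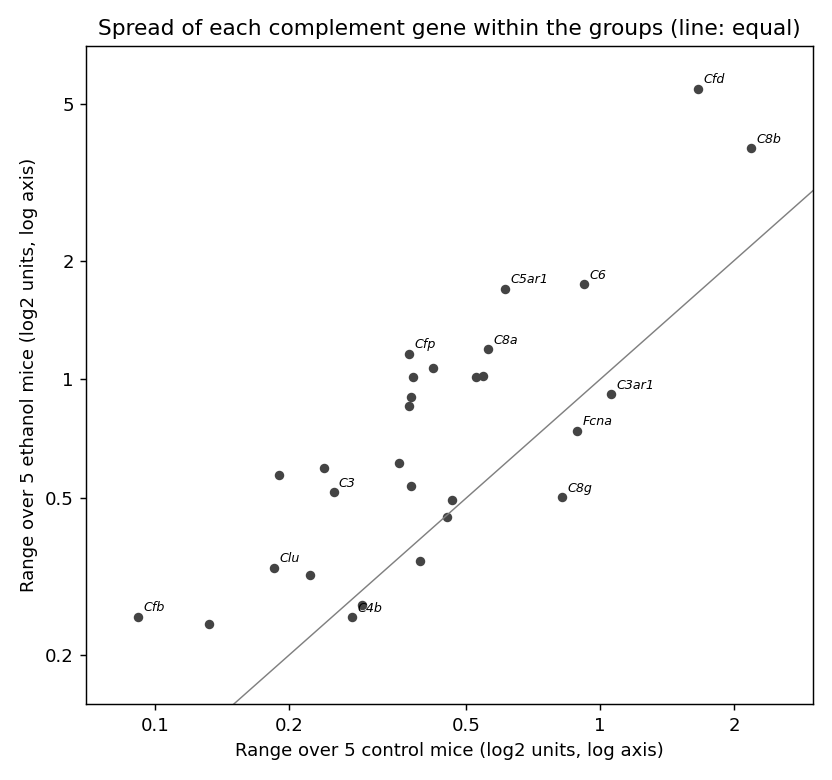
Range of each complement gene over the 5 ethanol mice against its range over the 5 control mice, both in log2 units on log axes, with a line of equality. Cfd and C8b lie far from the rest at 5.46 and 3.85 in ethanol mice and 1.66 and 2.19 in control mice.

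**Figure D5:**
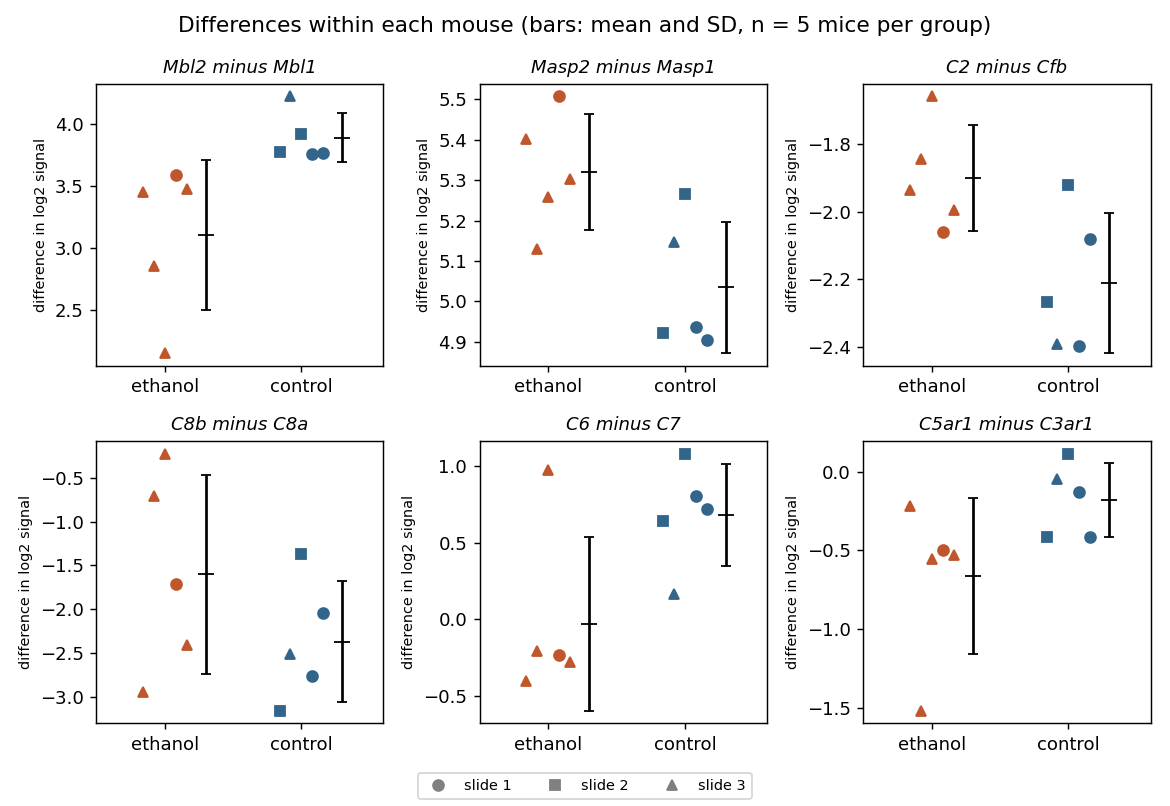
Within-mouse log2 ratios of 6 gene pairs in ethanol mice and control mice, each point 1 mouse. Mbl2 minus Mbl1 is the pair whose groups do not overlap, at 2.15 to 3.59 in ethanol mice and 3.76 to 4.22 in control mice.

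Of 32 further complement genes outside the 30, 27 were tested and 0 passed the adjusted threshold (limma), against 0.0199% of all genes, with a median of -0.021. At an unadjusted p under 0.05, 1 was higher and 1 lower, where 8.12% and 5.22% of all genes were. The groups were apart for 1 of the 27, against 3.05% of all genes. The smallest p-values among the 27 belonged to C5ar2, a second C5a receptor (0.22 ± 0.081, adjusted p = 0.319, groups apart), Cd93, a C1q-related receptor (-0.44 ± 0.20, adjusted p = 0.372), and Cpn1, a subunit of the carboxypeptidase that inactivates C3a and C5a (0.19 ± 0.085, adjusted p = 0.377). C1qa, C1qb and C1qc, the chains of C1q made by macrophages and named here after their values were seen, had -0.049, 0.046 and 0.043. Acute phase genes, which hepatocytes make under inflammatory cytokines, were below 0 in 17 of 23 (43.2% of all genes were) with a median of -0.085. Of these genes 0 passed the threshold, and 4 were lower at an unadjusted p under 0.05, against 5.22% of all genes. The lowest p-values there belonged to Steap4 (-0.68 ± 0.18, adjusted p = 0.215), Orm3 (-0.83 ± 0.23, 0.220) and Lcn2 (-0.90 ± 0.26, 0.237). Among 19 cytokine and transcription factor genes, 12 were below 0 and 0 passed (1 was higher at an unadjusted p under 0.05, where 8.12% of all genes were), with Cebpa at 0.28 ± 0.082 (adjusted p = 0.243), Irf1 at -0.17 ± 0.085 (0.402) and Nr1h4 at 0.16 ± 0.11 (0.501).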

How the data were processed

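Liver RNA of 10 mice was measured on 1-colour Agilent arrays. The authors deposited spot intensity values on a linear scale, made with Feature Extraction 10.7.3.1 per the file headers, and a table of log2 values whose processing steps no header or label records. Over 16880 bright probes, differences between arrays in that log2 table, deposited by the authors, matched those computed here within 0.02043, while its centring per probe stays unknown. Each array's processed signal was scaled so that its 75th percentile equalled the mean 75th percentile of the 10 arrays (333.8 signal units). Values under 4 signal units were then set to 4, log2 was taken, and the log2 of that mean was subtracted. Control and outlier spots were left out. A probe was kept if well above background on at least 4 of 5 arrays of a group (31110 of 56605), and the brightest kept probe stood for a gene. Gene names came from RefSeq (GRCm38.p6), which is not the array's build, so no positions of probes are given. The test between the groups was limma 3.58.1 (R 4.3.3) with Benjamini-Hochberg adjustment, and single values with exact permutation tests. Each sample is a separate mouse. From the other complement, acute phase and cytokine lists the 3 genes with the smallest p were named, and from the hepatocyte, Kupffer cell and adipocyte lists the 2 whose probes had the highest mean signal. Close copies of complement genes, the C1q chains, Cd163, Clec4f, the remaining adipocyte markers and the genes whose direction turned were named after their values were seen. The members, lists and pairs were chosen with earlier results of these data known. The sample titles give a replicate number within each group and no pairing, so the main test was unpaired. Same-numbered mice correlated at 0.32, 0.15, 0.31, 0.064 and -0.11 for replicates 1 to 5. Such correlations cannot settle whether mice were paired. Promoters were matched by symbol for 23 of the 30 genes.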

Additional observations from a re-analysis of the deposited data

How the results depend on the processing

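Over 28 alternatives, 0 complement genes passed the adjusted threshold in every one, and the median log2 fold change stayed between -0.13 (array column as covariate) and 0.065 (within slide 1). All genes past it numbered 3, against 0 with slide as a fixed block or with the replicate block, 15 with array weights, 12 with slide as a random block, 9 with trend and robust variance, 7 with normexp and 6 with no filter. With the replicate block the median was -0.0091 and 0 complement genes passed. When each mouse was left out in turn, the median ran from -0.037 to 0.065. Fcna stayed above 0 in all 28 alternatives, at 0.32 to 0.93, and had an unadjusted limma p under 0.05 in 25; Mbl2 did so in 24, with 0.10 within slide 1. Of the 29 complement genes, 20 changed sign under at least 1 alternative, many from values near 0, and 9 did not (Cfb, C2, Masp2, Mbl1, Fcna, Cr1l, C5ar1, C9 and C6). Among genes whose difference exceeded its SE, complement genes and others, these turned besides Mbl2, and the cause was not tested: C4bp -0.035 with quantile normalization, Cfd 0.47 within slide 1, Clu 0.039 within slide 3, Cd4 0.060 with the mean of kept probes, Cd3e -0.054 with a fixed slide block and -0.19 within slide 3, Car3 -0.28, Lep -0.040 and Stab2 0.018 within slide 3, and Colec11 0.017, Fabp4 0.13 and Lep -0.062 with the array column as covariate. Signals near background limit C3ar1 and C5ar1.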

Other observations

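Other cell types of the liver were read from their marker lists in the same limma fit, in which 0 markers of any list passed the adjusted threshold. Over all genes tested, 0.0199% passed it and 43.2% were below 0. At an unadjusted limma p under 0.05, 8.12% of all genes were higher and 5.22% lower. Stellate cell and fibroblast markers were below 0 in 11 of 12, 7 of them at an unadjusted limma p under 0.05, with a median log2 fold change of -0.35 and a summed signal of 62.0 to 93.1 in ethanol mice and 88.9 to 119.8 in control mice. Markers of monocyte-derived macrophages were below 0 in 8 of 10, 3 of them at that p, with a median of -1.06 and sums of 17.8 to 63.0 in ethanol mice and 27.2 to 55.2 in control mice. Neutrophil markers were below 0 in 5 of 6 tested, with 2 lower and 1 higher at that p and sums of 4.98 to 7.50 in ethanol mice and 5.97 to 7.16 in control mice. Endothelial markers were below 0 in 7 of 10, with 1 higher and 0 lower at that p and sums of 34.2 to 38.5 in ethanol mice and 32.5 to 41.5 in control mice. Cholangiocyte markers were below 0 in 4 of 5 tested (1 higher and 1 lower at that p), with sums of 3.79 to 16.8 in ethanol mice and 9.43 to 28.1 in control mice. Spp1 (mean level 3.17, against -1.14 for Sox9, the next) carried that sum. It was also counted among the markers of monocyte-derived macrophages. Lymphocyte markers were below 0 in 5 of 8 tested (1 lower and 0 higher at that p), with sums of 26.3 to 39.6 in ethanol mice and 27.2 to 46.1 in control mice. Mesothelial markers were below 0 in 3 of 3 tested (1 lower at that p), with sums of 51.0 to 71.9 in ethanol mice and 65.3 to 84.0 in control mice. That sum was nearly all Krt8 (mean level 6.00, against -1.99 for Msln and -2.93 for Wt1). It was therefore not read as an amount of mesothelial cells. The part of all these marker lists in any complement value was not tested.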
